A study of Danio rerio with 12 samples.

Results

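Glycolysis was examined in 12 zebrafish (Danio rerio) melanomas through 10 genes, from aldolase to lactate dehydrogenase: aldoaa, aldoab, gapdh, gapdhs, pgk1, eno1a, eno3, pkma, pkmb and ldha. They were matched by symbol in a table of 27827 genes, all 10 were found, and all 10 passed the filter on low counts that left 26866 genes for testing. PolyA RNA was sequenced from 6 tumours with the MiniCoopR-GFP genotype (the GFP group) and 6 with the MiniCoopR-MyrRSK genotype (the MyrRSK group). Both groups share MiniCoopR, a vector that restores mitfa, the melanocyte master regulator, in mitfa-deficient fish and drives a second gene in the same lineage from the mitfa promoter. The control vector carries GFP, and the other carries MyrRSK, a form of the kinase RSK, which acts downstream of ERK signalling. No fish was treated, and the sources used here give no host strain, further alleles, age of the fish or pooling. Since no label says whether the 12 tumours grew in separate fish, a p-value here speaks of the spread between these samples, which may be technical.

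Glycolysis splits glucose into pyruvate and yields ATP without oxygen, and lactate dehydrogenase turns pyruvate into lactate while regenerating the NAD+ that the glyceraldehyde-3-phosphate dehydrogenase step consumes. Many tumours, melanomas among them, run glycolysis at a high rate. Vertebrates carry several genes for most of these enzymes, some used in nearly every cell and others mainly in skeletal muscle, where glycolytic enzymes are very abundant. In zebrafish gapdh is the muscle gene and gapdhs the widely used one, although the mammalian GAPDHS is a sperm enzyme. For enolase, the class is taken from mammals, where ENO3 is the muscle enzyme and ENO1 the ubiquitous one. Here eno3, aldoab and gapdh were treated as muscle paralogs and eno1a, aldoaa, gapdhs and pgk1 as ubiquitous genes. The genes pkma, pkmb and ldha were given no class.

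The libraries held 66200553 to 72257237 gene counts in the GFP group and 61750434 to 67462664 in the MyrRSK group. Across all tested genes, 78 were called higher and 31 lower in MyrRSK melanomas at a Benjamini-Hochberg adjusted p under 0.05 in edgeR's quasi-likelihood test. Of 33 tested skeletal muscle markers, edgeR called 3 higher and 0 lower (all genes 0.29% and 0.115%), and limma-voom called 0. Before adjustment, the edgeR p was under 0.05 for 22 higher and 0 lower (all genes 7.18% and 8.33%). DESeq2 called 18 higher and 0 lower (all genes 3.09% and 2.98%). Of these markers, 2 were higher and 0 lower in the authors' deposited table, with an adjusted p under 0.05 (all genes 2.88% and 2.29%). The edgeR estimates of the 33 markers were positive in 28 and negative in 5, with a median log2 fold change of 1.75. A muscle score, the mean log2 CPM (counts per 1e6 counts of a TMM-scaled library) of those 33 genes, was between -0.67 and 0.22 in the GFP libraries. In the MyrRSK libraries it ran from -0.32 in MyrRSK 3, inside the GFP range, to 3.12 in MyrRSK 2 and 3.14 in MyrRSK 4. The MyrRSK libraries other than MyrRSK 3 were at 1.17 or more, above every GFP library. Score and group are thus largely confounded, and estimates adjusted for the score rest on little overlap. Summed over 37 matched markers, levels were 124 to 1274 CPM in GFP and 263 to 1450 CPM in MyrRSK libraries. Without atp2a1, a calcium pump of fast muscle, the sums were 54.2 to 80.4 and 62.5 to 618 CPM. Defining muscle markers were at 0 counts in some libraries: pvalb3 in 4, pvalb2 in 2, and myl1, cav3, tnni2a.4 and ckmb in 1 each. In bulk tissue, fewer cells of a type and less RNA per cell cannot be told apart.

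The edgeR test called no member in MyrRSK against GFP melanomas, while DESeq2 and the authors' deposited table each have eno1a and pkmb as higher. The submitters' notes also name DESeq2, so the deposited table is not evidence separate from the DESeq2 fit. Of the 10, 0 were called higher and 0 lower by edgeR at an adjusted p under 0.05, where the shares over all genes were 0.29% and 0.115%. With p under 0.05 before adjustment the counts were 5 higher (eno1a, pkmb, gapdh, aldoab and ldha) and 0 lower, against 7.18% higher and 8.33% lower among all genes. DESeq2 called 2 of 10 higher, eno1a and pkmb, and 0 lower, with backgrounds of 3.09% and 2.98%. Also 2 members, eno1a and pkmb, are in the authors' deposited table with an adjusted p under 0.05 in the higher direction and 0 in the lower, with backgrounds of 2.88% and 2.29%. In limma-voom no member was called. The log2 fold change was positive in 8 members and negative in 2, with a median of 0.44, beside a median of -0.07 over all genes, of which 12064 were positive and 14802 negative. No member had every MyrRSK library above every GFP library (1.01% of all genes did) or below (0.722%). Together the 10 genes took 0.365% ± 0.0636 (SD, n = 6) of the counts in GFP and 0.452% ± 0.0558 (SD, n = 6) in MyrRSK libraries.

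**Figure D1:**
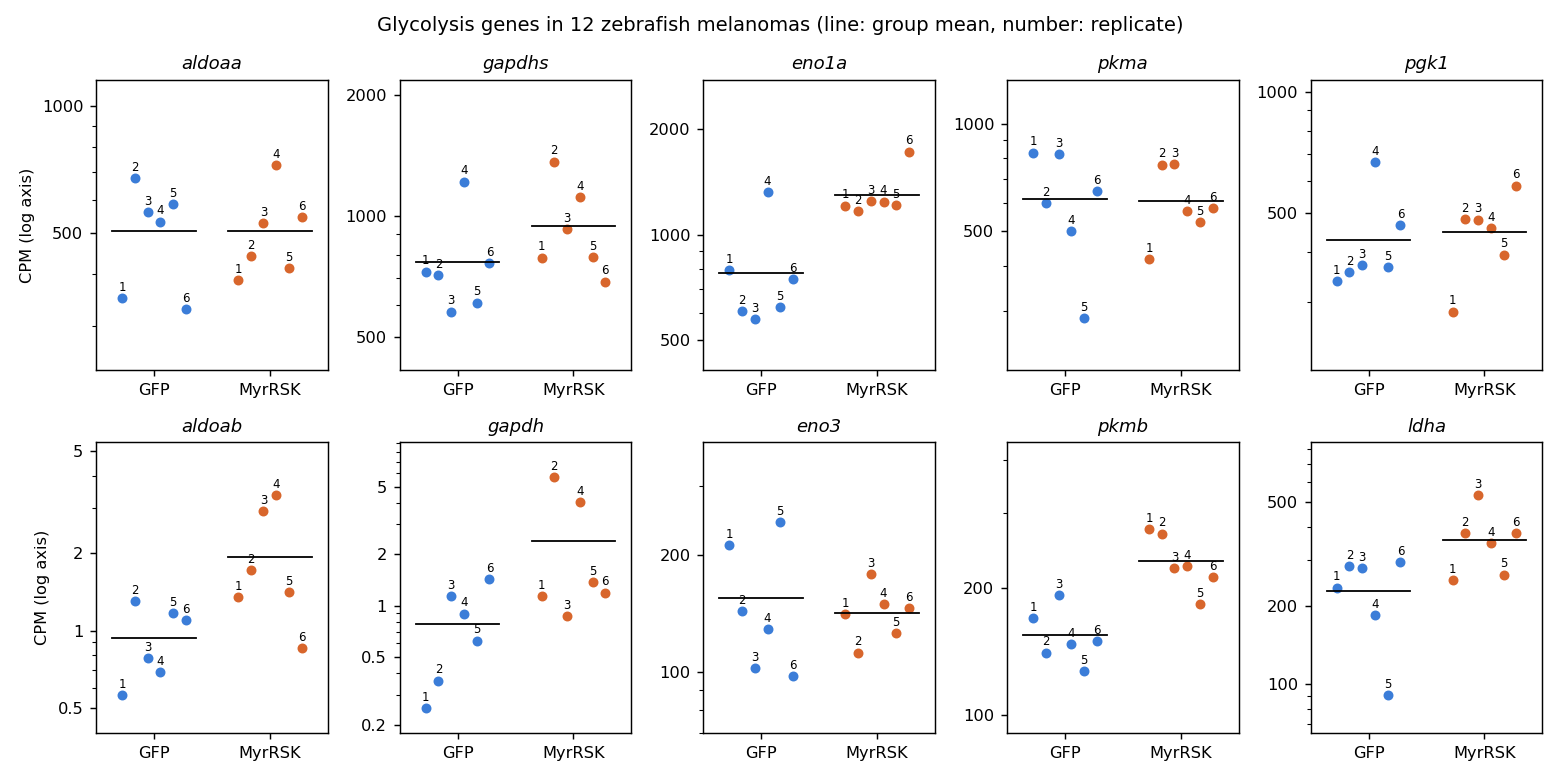
CPM (log axis) of the 10 glycolysis genes in each melanoma, with points numbered by replicate and a line at the group mean. The 2 groups overlap in every panel. For pkmb only MyrRSK 5 (183 CPM) lies below a GFP library, and for eno1a GFP 4 at 1319 CPM is the only GFP library above 793 CPM.

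Aldolase cleaves fructose-1,6-bisphosphate into a pair of triose phosphates. The ubiquitous gene aldoaa (ENSDARG00000011665, chromosome 3, 39561781 to 39571834, build Zv9) had 349, 674, 561, 532, 585 and 330 CPM in GFP 1 to 6. In MyrRSK 1 to 6 it had 386, 440, 527, 724, 412 and 546 CPM. The groups lay on top of each other, at 505 ± 137 and 506 ± 124 CPM (mean ± SD, n = 6 each), with a log2 fold change of 0.00 ± 0.23 (SE; edgeR adjusted p = 0.998). Its sign was negative under 2 other scalings, so no direction is given.

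The muscle paralog aldoab (ENSDARG00000034470, chromosome 12, 4732693 to 4750571) was counted at 38 to 196 reads a library. Its values were 0.560, 1.298, 0.781, 0.688, 1.17 and 1.101 CPM in GFP 1 to 6. In MyrRSK 1 to 6 they were 1.34, 1.71, 2.92, 3.36, 1.41 and 0.856 CPM. Thus MyrRSK 1 to 5 exceeded the whole GFP range, and MyrRSK 6 lay inside it. Fitted over all libraries, the log2 fold change was 1.05 ± 0.38 (unadjusted p = 0.0155, edgeR adjusted p = 0.208), so the gene was not called. MyrRSK 3 had the second highest aldoab level and the lowest muscle score of its group. Adjusted for the muscle score, the estimate was 1.02 ± 0.52.

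Glyceraldehyde-3-phosphate dehydrogenase oxidises its triose substrate and makes NADH. The zebrafish muscle gene gapdh (ENSDARG00000043457, chromosome 16, 19254364 to 19261820), which bears the name of a common reference gene, was counted at 17 to 368 reads a library. GFP 1 to 6 had 0.251, 0.363, 1.14, 0.898, 0.624 and 1.43 CPM. MyrRSK 1 to 6 had 1.14, 5.67, 0.867, 4.06, 1.38 and 1.19 CPM. Only MyrRSK 2 and MyrRSK 4 lay above the GFP range, and these are the libraries with the highest muscle score. Its log2 fold change of 1.60 ± 0.57 (unadjusted p = 0.0148, edgeR adjusted p = 0.205) was the largest of the 10 and was not called. Without MyrRSK 2 and MyrRSK 4 it was 0.54 ± 0.48, and after adjustment for the muscle score -0.07 ± 0.72. The first had to fall, because it leaves out the libraries with the highest gapdh level.

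The widely used gapdhs (ENSDARG00000039914, chromosome 16, 47879730 to 47904970) had 726, 712, 578, 1216, 608 and 763 CPM in GFP 1 to 6. In MyrRSK 1 to 6 it had 786, 1364, 926, 1113, 789 and 685 CPM. The groups overlapped, since GFP 4 exceeded 5 of the MyrRSK libraries. The log2 fold change was 0.30 ± 0.24 (edgeR adjusted p = 0.582), and it was 0.05 ± 0.25 without MyrRSK 2 and MyrRSK 4. It had to fall there, because these are the MyrRSK libraries with the highest gapdhs level. Adjusted for the muscle score it was -0.09 ± 0.31. Without GFP 4 it was 0.48, and without MyrRSK 2 alone 0.16. These moves too had to follow, because each fit leaves out the library of its group with the highest gapdhs level.

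Phosphoglycerate kinase makes the first ATP of the pathway's payoff phase. The gene pgk1 (ENSDARG00000054191, chromosome 21, 36771669 to 36787616), which the files pair with the human symbol PGK2, had 338, 356, 371, 670, 366 and 467 CPM in GFP 1 to 6. MyrRSK 1 to 6 had 284, 481, 481, 458, 393 and 584 CPM. The highest and the lowest value belonged to GFP 4 and MyrRSK 1, and the group means of 428 ± 127 and 447 ± 101 CPM differed by less than either SD. On the log2 scale they differed by 0.06 ± 0.23 (edgeR adjusted p = 0.916).

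Enolase converts 2-phosphoglycerate to phosphoenolpyruvate, and its paralogs among the members, eno1a and eno3, had different patterns in these tumours. Enolase genes outside the members, added after their values were seen, were not called by edgeR. Their log2 fold changes were -0.05 ± 0.55 for eno1b, 0.42 ± 0.38 for eno2 and 0.24 ± 0.52 for ENO4. The ubiquitous gene eno1a (ENSDARG00000022456, chromosome 23, 22950619 to 22972140) had 793, 606, 576, 1319, 622 and 746 CPM in GFP 1 to 6. MyrRSK 1 to 6 had 1209, 1167, 1241, 1240, 1213 and 1722 CPM. All 6 MyrRSK libraries exceeded 5 of the 6 GFP libraries, and 5 of them lay within a band of 1167 to 1241 CPM. GFP 4 lay above that band and below MyrRSK 6 only. The log2 fold change was 0.74 ± 0.23, a 1.67-fold higher fitted level, with an unadjusted p of 0.00665. After adjustment it was not called by edgeR (adjusted p = 0.147) and was called by DESeq2 (adjusted p = 0.0353), while the authors' deposited table gives 0.68 with an adjusted p of 0.0392. Without GFP 4 the edgeR estimate was 0.96 (adjusted p = 0.0557). It had to rise there, because GFP 4 had the highest eno1a level of its group. The eno1a estimate was 0.69 ± 0.33 when adjusted for the muscle score and 0.79 ± 0.27 without MyrRSK 2 and MyrRSK 4.

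The gene eno3 (ENSDARG00000039007, chromosome 23, 44727895 to 44739806), named for the muscle enolase, had 212, 143, 103, 129, 243 and 97.8 CPM in GFP 1 to 6. MyrRSK 1 to 6 had 141, 112, 178, 150, 126 and 146 CPM. Every MyrRSK library lay within the GFP range, and the 2 libraries highest in muscle markers, MyrRSK 2 and MyrRSK 4, were at 112 and 150 CPM. The muscle class of eno3 rests on mammals, and these levels cannot test it. In MyrRSK 2 and MyrRSK 4 the muscle gene gapdh reached only 5.67 and 4.06 CPM. A muscle share of that size would be lost in the spread of eno3 (SD 59.8 CPM in GFP and 22.6 CPM in MyrRSK libraries). The log2 fold change of eno3 was -0.12 ± 0.24 (edgeR adjusted p = 0.842). Adjusted for the muscle score it was -0.08 ± 0.35. The coefficient of variation was 38.7% among GFP and 15.9% among MyrRSK libraries, and that difference was not tested.

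Pyruvate kinase makes pyruvate and ATP. The gene pkma (ENSDARG00000003933, chromosome 18, 680253 to 729324) had 830, 599, 820, 502, 286 and 648 CPM in GFP 1 to 6 and 418, 768, 771, 570, 530 and 579 CPM in MyrRSK 1 to 6. Every MyrRSK value lay within the GFP range. Its log2 fold change was -0.02 ± 0.26 (edgeR adjusted p = 0.980), too near 0 for a direction.

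The paralog pkmb (ENSDARG00000003191, chromosome 25, 30026828 to 30180180) had 169, 141, 192, 147, 127 and 150 CPM in GFP 1 to 6. MyrRSK 1 to 6 had 275, 268, 223, 225, 183 and 212 CPM. Of the MyrRSK libraries, 5 lay above every GFP library, and MyrRSK 5 lay below GFP 3 only. The log2 fold change was 0.58 ± 0.17, a 1.50-fold higher fitted level, with the smallest p of the 10 members (unadjusted p = 0.00412, edgeR adjusted p = 0.123). DESeq2 called it (adjusted p = 0.0105), and the authors' deposited table gives 0.56 with an adjusted p of 0.0121. It was 0.51 ± 0.26 when adjusted for the muscle score and 0.53 ± 0.20 without MyrRSK 2 and MyrRSK 4.

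The pkmb values are uncertain as a measure of pyruvate kinase, because its annotated span overlaps other listed genes; the other 9 members overlap none. It shares 132984 bases with COX5A (2 of 3), named for a subunit of cytochrome c oxidase (chromosome 25, 30047197 to 30199838). In every library the count of that gene was 97.9% to 99.6% of the pkmb count. It also shares 19287 bases with arid3b, named for a DNA-binding protein, whose counts were 88.1% to 105% of those of pkmb. The span of arid3b ends at 30046114, before COX5A (2 of 3) starts. A shared span of 33541 bases with PARP6 (3 of 4) went with counts at 2.83% to 17.0% of the pkmb count. The log2 fold changes were 0.58 ± 0.17 for COX5A (2 of 3), 0.65 ± 0.17 for arid3b and 0.18 ± 0.32 for PARP6 (3 of 4). Counts of pkmb and of COX5A (2 of 3) therefore cannot be told apart in this table, and why these counts are so alike was not tested. These neighbours were chosen after their values were seen.

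**Figure D2:**
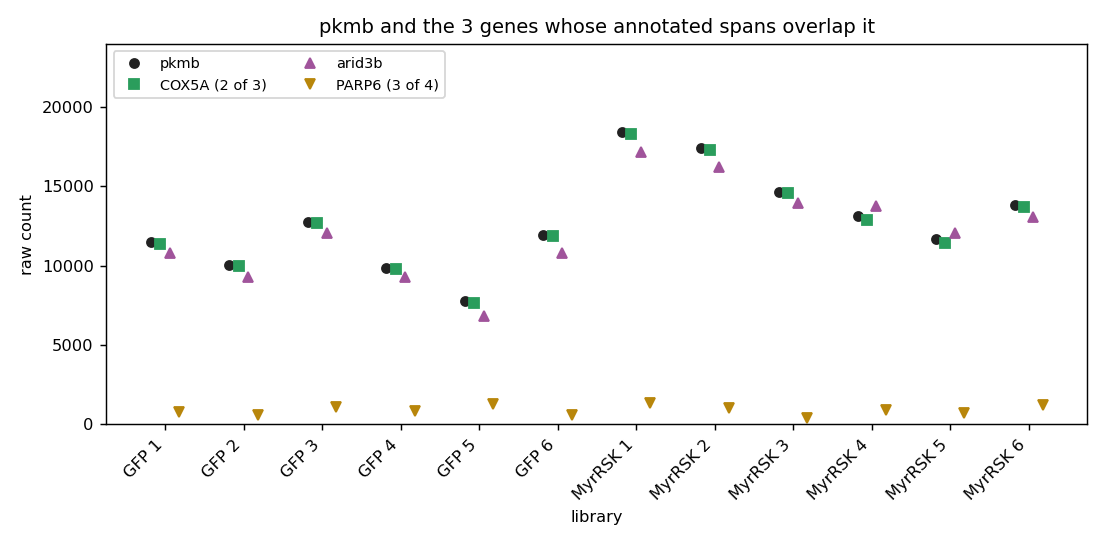
Raw counts (linear axis from 0) of pkmb and the 3 listed genes whose spans overlap it, by library. The points of pkmb and COX5A (2 of 3) nearly coincide in all 12 libraries, with the second at 97.9% to 99.6% of the first.

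Lactate dehydrogenase A favours the step from pyruvate to lactate. The gene ldha (ENSDARG00000040856, chromosome 25, 25749747 to 25758098), which the files pair with the human symbol LDHAL6A, had 234, 284, 278, 184, 90.7 and 295 CPM in GFP 1 to 6. MyrRSK 1 to 6 had 250, 380, 531, 347, 263 and 379 CPM. Of the MyrRSK libraries, 4 lay above the GFP range and 2 inside it, and GFP 5 was the lowest of the 12. For ldha the log2 fold change was 0.66 ± 0.29 (unadjusted p = 0.0384, edgeR adjusted p = 0.292), which was not called. The highest level, in MyrRSK 3, came with the lowest muscle score of its group, and the estimate adjusted for that score was 1.04 ± 0.40 (adjusted p = 0.445).

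**Figure D3:**
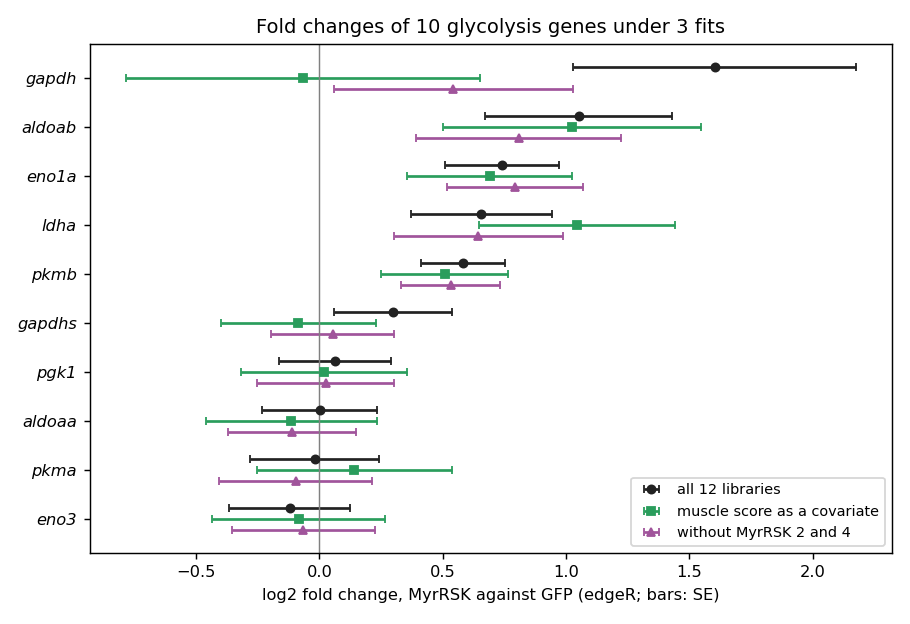
Log2 fold changes of the 10 genes, MyrRSK against GFP, with SE bars, from the edgeR fit of all 12 libraries, the fit adjusted for the muscle score, and the fit without MyrRSK 2 and MyrRSK 4. The gapdh estimate moves from 1.60 to -0.07 and 0.54, while those of eno1a (0.74, 0.69 and 0.79) and pkmb (0.58, 0.51 and 0.53) stay close together. The last fit leaves out the libraries with the highest gapdh level, and score and group are largely confounded. No gene shown was called in any of these fits.

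Setting paralogs against each other within a library removes library scaling. The log2 ratio of CPM is not corrected for gene length, so only its difference between libraries is read. The eno3 to eno1a ratio was -1.90, -2.08, -2.49, -3.36, -1.36 and -2.93 in GFP 1 to 6. In MyrRSK 1 to 6 it was -3.10, -3.38, -2.80, -3.05, -3.27 and -3.56. The MyrRSK ratios were gathered at the low end, 2 of them below every GFP library, and the means were -2.35 ± 0.73 and -3.19 ± 0.27 (SD, n = 6). The difference of -0.84 ± 0.32 (SE) had an exact two-sided permutation p of 0.0238, and of 0.0519 after adjustment over the 4 ratios.

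The aldoab to aldoaa ratio had the opposite sign of difference. It was -9.24, -9.003, -9.46, -9.56, -8.95 and -8.21 in GFP 1 to 6 and -8.15, -7.99, -7.49, -7.74, -8.17 and -9.29 in MyrRSK 1 to 6. All MyrRSK libraries but MyrRSK 6 lay above every GFP library. The difference was 0.93 ± 0.32 (exact permutation p = 0.0260, adjusted over the 4 ratios 0.0519). For gapdh to gapdhs the values were -11.42, -10.88, -8.96, -10.38, -9.89 and -9.05 in GFP 1 to 6, and -9.42, -7.91, -10.04, -8.09, -9.14 and -9.15 in MyrRSK 1 to 6. Here MyrRSK 2 and MyrRSK 4 were the only libraries above the GFP range, and the difference was 1.14 ± 0.52 (exact permutation p = 0.0649, the same after adjustment).

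The pkma to pkmb ratio, limited by the overlapping spans and near-equal counts at pkmb, was 1.92 ± 0.41 in GFP and 1.37 ± 0.41 in MyrRSK libraries (SD, n = 6). The difference was -0.55 ± 0.23 (exact permutation p = 0.0433, adjusted 0.0577). No ratio passed 0.05 after adjustment over the 4, and the smallest p that the 924 assignments of libraries allow is 0.00216. Adjusted for the muscle score, the 4 differences became -0.76 for enolase, 0.99 for aldolase, 0.26 for glyceraldehyde-3-phosphate dehydrogenase and -0.28 for pyruvate kinase. Permuting the groups over residuals of each ratio on the score gave p-values of 0.331, 0.229, 0.816 and 0.563. These test another statistic than the adjusted differences and are not exact, since score and group are related. They therefore decide nothing about those differences. The estimated difference was negative for eno3 and positive for aldoab and gapdh, the paralogs classed as muscle genes, and none of these passed. In the negative enolase ratio, eno3 itself had a log2 fold change of -0.12 and eno1a of 0.74.

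**Figure D4:**
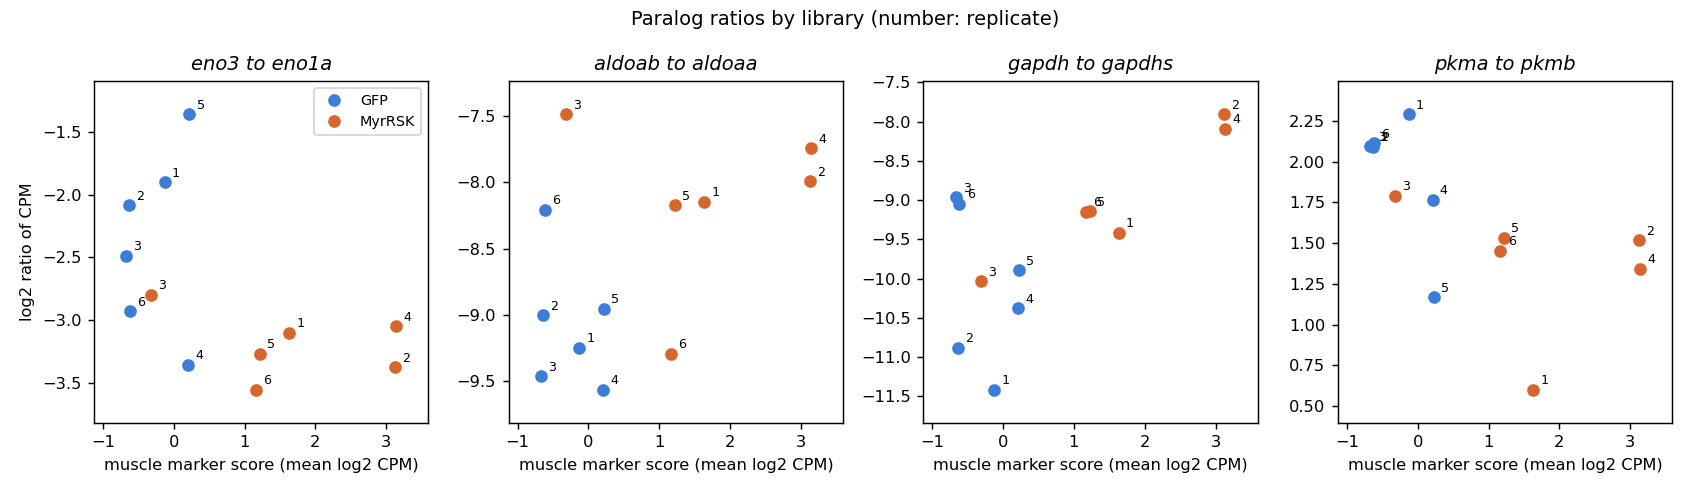
Log2 ratio of CPM for 4 paralog pairs (vertical axis) against the muscle score, the mean log2 CPM of 33 muscle markers (horizontal axis), with libraries numbered by replicate. MyrRSK 2 and MyrRSK 4, at scores of 3.12 and 3.14, have the highest gapdh to gapdhs ratios (-7.91 and -8.09), while their eno3 to eno1a ratios (-3.38 and -3.05) lie among those of the other MyrRSK libraries.

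The genes most like each enolase in their pattern over the 12 libraries were taken from 16557 genes by Pearson's r of log2 CPM. Candidates had a mean normalised count of at least 50 and a symbol other than a clone or placeholder name. Genes without such a symbol may have a higher r. For eno3 they were tspan12 (r = 0.93), TWF1 (3 of 3) (0.89), magt1 (0.89), lrrc8db (0.88) and trpv1 (0.88). For eno1a they were ndufa4 (0.94), VDR (1 of 2) (0.91), CDH18 (1 of 2) (0.90), atl1 (0.89) and ormdl2 (0.89). No other member was among either 5. The r of eno3 was -0.07 with eno1a, -0.53 with gapdh and 0.03 with aldoab, and the highest r of eno1a with a member was 0.59, with pkmb. These r describe 12 libraries that share the group difference. The 5 for each enolase are the highest out of 16557, so their size is partly a product of that choice, and they were not tested.

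Beyond the members, 23 other glycolysis genes were listed and tested, and 0 were called higher or lower by edgeR (all genes 0.29% and 0.115%). Before adjustment 2 had positive and 1 a negative estimate with p under 0.05 (all genes 7.18% and 8.33%). In all, 13 estimates were positive and 10 negative, and the median log2 fold change was 0.24. The brain-type aldolase gene aldocb had 296 ± 90.9 CPM in GFP and 446 ± 90.0 CPM in MyrRSK libraries (log2 fold change 0.59 ± 0.23, edgeR adjusted p = 0.241). Glucose-6-phosphate isomerase gpia had 191 ± 67.0 and 300 ± 70.1 CPM (0.65 ± 0.26, adjusted p = 0.255). The negative estimate rested on few tumours. The hexokinase-like gene hkdc1 was at 35.0 CPM in GFP 6 and at most 8.08 CPM elsewhere, with an estimate of -3.07 ± 1.06 (edgeR adjusted p = 0.188). DESeq2 called hkdc1 lower (adjusted p = 0.0172), while the authors' deposited table gives -1.28 with no adjusted p. Without GFP 6 its estimate was -1.28 (edgeR adjusted p = 0.427), and limma-voom gave -1.33. The triose-phosphate isomerase genes stood at 261 ± 118 and 312 ± 61.2 CPM for tpi1b (0.26 ± 0.26, and 0.55 with an adjusted p of 0.176 without GFP 4) and at 2.13 ± 1.49 and 3.73 ± 1.25 CPM for tpi1a (0.81 ± 0.44, adjusted p = 0.404). The tpi1b estimate had to rise without GFP 4, which had the highest tpi1b level.

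Among 18 tested genes of lactate handling and of glucose and pyruvate transport, edgeR called 0 (all genes 0.29% higher and 0.115% lower). Before adjustment, p was under 0.05 for 3 positive and 0 negative estimates (all genes 7.18% and 8.33%). There were 14 positive and 4 negative estimates, with a median of 0.35. DESeq2 had 2 higher, ldhd and mpc2, and 0 lower (all genes 3.09% and 2.98%). The authors' deposited table had the same 2 higher and 0 lower (all genes 2.88% and 2.29%). The mitochondrial pyruvate carrier subunit mpc2 had 39.0, 42.3, 28.2, 36.8, 39.2 and 35.4 CPM in GFP 1 to 6 and 55.7, 60.0, 49.1, 46.8, 47.3 and 58.1 CPM in MyrRSK 1 to 6. Every MyrRSK library lay above every GFP library, as in 1.01% of all genes. The log2 fold change was 0.52 ± 0.15 (edgeR adjusted p = 0.122, DESeq2 adjusted p = 0.00849). A second gene listed as MPC2, added after its values were seen, had 2.15 ± 1.82 and 2.25 ± 2.72 CPM (0.07 ± 0.70, edgeR adjusted p = 0.972). The partner subunit MPC1 had 33.4 ± 7.34 and 50.1 ± 10.4 CPM (0.58 ± 0.19, edgeR adjusted p = 0.167). The D-lactate dehydrogenase gene ldhd had 5.06 ± 1.34 and 8.94 ± 1.57 CPM (0.82 ± 0.23, edgeR adjusted p = 0.114, DESeq2 adjusted p = 0.00777). The monocarboxylate transporter slc16a1, with 91.3 ± 40.8 and 60.7 ± 15.3 CPM, had an estimate of -0.59 ± 0.28 (edgeR adjusted p = 0.331), and of -0.33 without GFP 4. The second lactate dehydrogenase, ldhba, had 489 ± 118 and 624 ± 141 CPM (0.35 ± 0.23, adjusted p = 0.482), and bsg, a chaperone of lactate transporters, had an estimate of 0.34 ± 0.20.

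Pyruvate dehydrogenase, which sends pyruvate into the mitochondrial citrate cycle, and enzymes that regulate it or glycolysis gave 19 tested genes. EdgeR called 0 of them (all genes 0.29% higher and 0.115% lower). Before adjustment p was under 0.05 for 4 positive and 1 negative estimates (all genes 7.18% and 8.33%). DESeq2 called 2 higher and 1 lower (all genes 3.09% and 2.98%). The authors' deposited table also had 2 higher and 1 lower (all genes 2.88% and 2.29%). There were 11 positive and 8 negative estimates, with a median of 0.11. The gene pfkfb3, whose enzyme makes the activator of phosphofructokinase, had 83.3, 62.6, 32.9, 68.6, 70.6 and 81.8 CPM in GFP 1 to 6. In MyrRSK 1 to 6 it had 64.4, 154, 161, 179, 148 and 199 CPM. MyrRSK 1 alone lay in the GFP range. The log2 fold change of 1.18 ± 0.28 was past the threshold in DESeq2 (adjusted p = 0.00398) and not in edgeR (adjusted p = 0.0756). Adjusted for the muscle score it was 1.11. The complex's binding protein gene pdhx had 19.7 ± 4.42 and 29.8 ± 4.30 CPM (0.60 ± 0.19, edgeR adjusted p = 0.145, DESeq2 adjusted p = 0.0406). The activating phosphatase pdp1 had the opposite sign, with 10.8 ± 4.84 and 5.63 ± 0.987 CPM (-0.95 ± 0.29, edgeR adjusted p = 0.134, DESeq2 adjusted p = 0.0278). The gene pdha1b, at 0.519 ± 0.406 and 2.16 ± 2.20 CPM, had an estimate of 2.05 ± 0.75 (edgeR adjusted p = 0.211). It was at 6.13 CPM in MyrRSK 1, 3.38 CPM in MyrRSK 4 and 1.15 CPM or less elsewhere. Its paralog pdha1a, chosen after its values were seen, had 96.4 ± 16.8 and 81.9 ± 21.8 CPM (-0.24 ± 0.20, edgeR adjusted p = 0.612). For dldh the estimate was 0.17 ± 0.17.

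**Figure D5:**
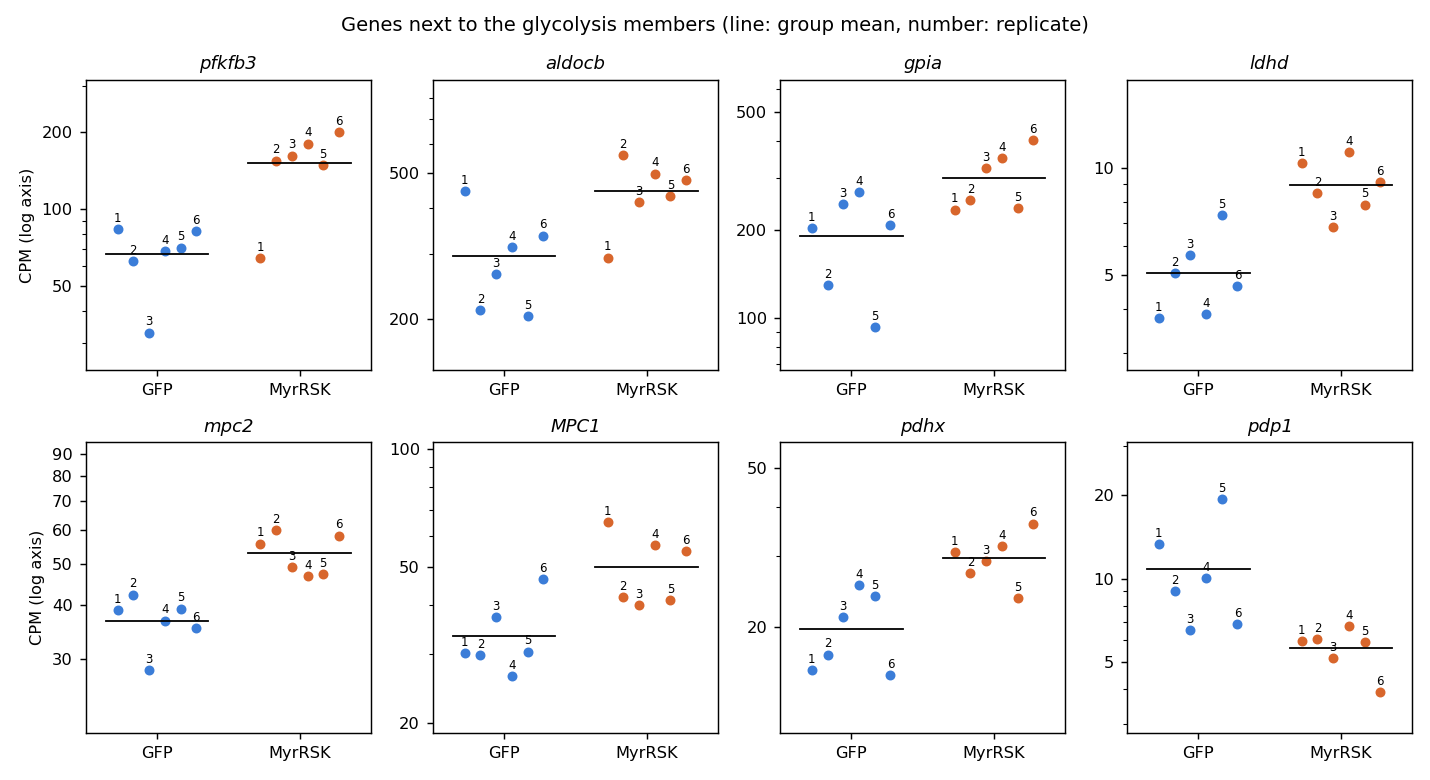
CPM (log axis) of 8 genes next to the members in the pathway, with points numbered by replicate and a line at the group mean. For mpc2 every MyrRSK library is above every GFP library, as in 1.01% of all genes. MyrRSK 1 is the only MyrRSK library in the GFP range of pfkfb3, and pdp1 has the lower mean in MyrRSK (5.63 against 10.8 CPM).

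Gluconeogenesis, the reverse route to glucose, gave 9 tested genes with a median of 0.15. EdgeR called 0 of them (all genes 0.29% higher and 0.115% lower). Before adjustment p was under 0.05 for 0 positive and 1 negative estimates (all genes 7.18% and 8.33%). That 1, the fructose bisphosphatase fbp2, had an estimate of -1.01 ± 0.42 (adjusted p = 0.270), and of -0.46 without GFP 1. For the genes with the next smallest p or the highest mean, estimates were 0.53 for G6PC3, -0.83 for pck1 and 0.41 for g6pca.2. They were -0.37 for fbp1a and -0.11 for pck2. Of 19 tested genes known as targets or parts of the hypoxia response, which includes glycolytic genes in mammals, edgeR called 0 (all genes 0.29% and 0.115%). Before adjustment p was under 0.05 for 2 positive estimates and 1 negative (all genes 7.18% and 8.33%). There were 10 positive and 9 negative estimates, with a median of 0.09. The hypoxia-induced ankrd37 had an estimate of 1.14 ± 0.45 (adjusted p = 0.241), with 63.5 CPM in MyrRSK 6 and 25.3 CPM or less elsewhere, and it was 0.74 without that library. Estimates were 0.90 ± 0.40 for ddit4 (adjusted p = 0.301), -0.12 ± 0.20 for ndrg1a, and -1.63 ± 0.61 for the barely detected ca4a (adjusted p = 0.224). The factor gene hif1ab itself had an estimate of -0.42 ± 0.24, and of -0.22 without GFP 1. Its paralog hif1aa, chosen after its values were seen, had the opposite sign, at 0.76 ± 0.46 (adjusted p = 0.455).

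Markers of other cell types were read in the same libraries. For comparison, edgeR called 0.29% of all genes higher and 0.115% lower, and DESeq2 3.09% and 2.98%. The authors' deposited table had 2.88% and 2.29%, and limma-voom called 86 of 26866 genes higher and 20 lower. At an unadjusted edgeR p under 0.05, the shares of all genes were 7.18% higher and 8.33% lower. By that measure 3 of 7 leukocyte markers were higher and 0 lower. Of 7 keratinocyte markers 0 were higher and 3 lower, and of 9 melanocyte markers 0 and 3. The counts were 2 and 0 of 6 hepatocyte, 0 and 0 of 4 erythroid, and 1 and 1 of 5 heart muscle markers. All 7 leukocyte markers had positive estimates (median 0.52), 0 were called by edgeR, and their mean log2 CPM was 5.48 ± 0.76 in GFP and 6.31 ± 0.48 in MyrRSK libraries. All 7 keratinocyte markers had negative estimates (median -0.87), 0 were called, and their mean log2 CPM was 7.24 ± 0.82 and 6.49 ± 0.83. Melanocyte markers, which define the labelled tissue, were present at 7.55 ± 1.58 and 6.95 ± 0.36, lowest at 4.67 in GFP 6. Of 9, 8 had negative estimates (median -0.91), and 0 were called by edgeR, 2 lower by DESeq2 and 1 lower in the authors' deposited table. The 6 tested hepatocyte markers had a median of 0.02, yet their mean log2 CPM was -0.76 ± 0.67 in GFP and 0.63 ± 0.51 in MyrRSK libraries, with levels summed over 7 matched markers of 4.91 to 25.7 and 11.4 to 182 CPM. Of the 6 tested, 0 were called by edgeR, 2 higher by DESeq2, 1 higher by limma-voom and 2 higher in the authors' deposited table. The medians were -1.08 for 4 erythroid and -0.51 for 5 heart muscle markers, with 0 called by edgeR and, in heart muscle, 1 higher by DESeq2. The part of these cell types in the members' differences was not tested. Nor was that of muscle, whose score was used for adjustment above but largely follows the group.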

How the data were processed

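PolyA RNA was sequenced from 12 melanomas, 6 per group by title. The raw columns are read counts per gene, as deposited by the authors, and a normalised signal column per library is the count divided by 1 size factor, also made by the authors. The deposited log2 fold changes, standard errors, test score and p-values are the authors' own. Per the submitters' processing notes, the tools were STAR 2.6.1d, HTSeq 0.6.0 and DESeq2 and the build was Zv9, with no role or order given, and whether counting used strand is not given in the sources used here.

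R 4.3.3 and edgeR 4.0.16 fitted the counts by robust quasi-likelihood with group alone, after filterByExpr and TMM scaling, with Benjamini-Hochberg adjustment over 26866 genes. Each SE is the log2 fold change over the square root of F. CPM uses TMM-scaled totals, and a prior count of 1 enters log2 CPM. Ratios were compared by exact two-sided permutation over libraries. With the muscle score, residuals of the ratio on that score were compared between permuted groups, which is not exact. Alternatives were DESeq2 1.42.0, limma 3.58.1 (voom), 2 other scalings, 2 other filters, prior counts of 0.5 and 5, the muscle score as a covariate, the replicate block, and libraries left out. The procedure was tested on simulated data. No libraries were duplicates (smallest chi-square per degree of freedom 177 over 66 pairs).

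The members, gene lists and libraries left out in pairs were chosen with earlier results of these data known, and the list members matched by symbol include older names. All 10 members are named, and of other lists the called genes or up to 4 with the smallest p and 2 with the highest mean. Genes with a mean normalised count under 5.08 are not analysed here, and 1 gene of the list of other glycolysis genes is not reported here. Depths of 61750434 to 72257237 counts make counting error small except for low genes, such as gapdh, aldoab, fbp2, hkdc1 and tpi1a, with under 100 reads in some libraries.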

Additional observations from a re-analysis of the deposited data

Results flagged for a closer look

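In 8 of 84 groups of 6 libraries examined, 1 library stood apart from the others by Dixon's criterion. Independent normal values meet it in about 1 in 20 groups. The criterion was applied to CPM, which need not be normal, and the groups share libraries. The number of flags therefore cannot be set against that rate. GFP 4 was such a library for 3 genes of the lower and middle pathway: eno1a at 1319 CPM (the next highest GFP library was at 793), gapdhs at 1216 CPM (next 763) and tpi1b at 499.9 CPM (next 234). It also had the highest pgk1 level of the 12 libraries. MyrRSK 6 stood apart for eno1a at 1722 CPM (next 1241) and for ankrd37 at 63.5 CPM (next 25.3). The other 3 were hkdc1 at 35.0 CPM in GFP 6, fbp2 at 2.21 CPM in GFP 1 and hif1ab at 388 CPM in GFP 1.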

How the results depend on the processing

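Counts of genes called depended on the tool and on single libraries. Against 78 higher and 31 lower in edgeR, there were 788 and 760 with DESeq2, 6 and 0 with the replicate block, 5 and 0 after adjustment for the muscle score, 1 and 0 without MyrRSK 2 and MyrRSK 4, and 23 and 7 without GFP 1 and GFP 2. Lower calls were 65 with a mean count of at least 100 and 20 in limma-voom. With each library left out they ran from 1 to 104 higher and 0 to 84 lower. Higher calls moved by over 1.5 times except without GFP 3, GFP 4, GFP 6 or MyrRSK 3, and were 1 without GFP 2 and 2 without MyrRSK 4. Lower calls did except without GFP 1 or GFP 3, and were 0 without GFP 2 or MyrRSK 4. Member calls were 0 in each of these fits except DESeq2 (2 higher, eno1a and pkmb), and other glycolysis genes had 0 except 1 lower in DESeq2.

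The replicate numbers were not taken as pairs: same-numbered libraries had correlations of -0.15 to 0.10, and 0 of 6 correlated best with their own number. The sign-flip test of the block gave exact p = 0.0625 for the enolase ratio difference (-0.84), 0.125 for aldolase (0.93), 0.188 for glyceraldehyde-3-phosphate dehydrogenase (1.14) and 0.0938 for pyruvate kinase (-0.55). The smallest it allows is 0.0312. Past 0.05 as unadjusted p, 3 ratio differences were lost in other settings. The p with the muscle score was that of the residuals, not of the adjusted difference. Enolase was -0.76 with the muscle score, -0.83 without MyrRSK 2 and MyrRSK 4 and -0.66 without GFP 1 and GFP 2. Aldolase was 0.99, 0.80 and 0.91, and pyruvate kinase -0.28, -0.58 and -0.41. With 1 library left out they ran from -1.04 to -0.64 (past 0.05 except without MyrRSK 6), 0.80 to 1.16 (past 0.05 throughout), and -0.70 to -0.39 (not past 0.05 without GFP 1, 2, 3 or 6 or MyrRSK 1, 4 or 6). The range for glyceraldehyde-3-phosphate dehydrogenase was 0.88 to 1.37, past 0.05 without GFP 3, GFP 6 or MyrRSK 3.

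Signs turned for the largest member estimate (gapdh, 1.60), for gapdhs (0.30) and for estimates nearer 0. With the muscle score gapdh was -0.067, gapdhs -0.086, pkma 0.14, aldoaa -0.11 and pck2 0.047. For pkma limma-voom gave 0.033, the replicate block 0.035, and the fit without GFP 1 and GFP 2 gave 0.10. For aldoaa DESeq2 size factors gave -0.0017, upper quartile scaling -0.015, a mean count of at least 100 -0.0037, the DESeq2 test -0.0017, and the fit without MyrRSK 2 and MyrRSK 4 -0.11. Without GFP 1 and GFP 2 pgk1 was -0.068. With 1 library left out the ranges crossed 0 for aldoaa (-0.13 to 0.10), eno3 (-0.22 to 0.054), pgk1 (-0.030 to 0.24), pkma (-0.17 to 0.086) and ndrg1a (-0.19 to 0.0090). The cause was not tested. The gene aldoab has no value with a mean count of at least 100, because it is below that filter. A median over all genes of -0.07 on the log2 scale was -0.10 with upper quartile scaling.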
